A study of Mus musculus with 24 samples.

Results

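The 10 genes described here are C1qa, C1qb and C1qc, which encode the 3 chains of complement C1q, and 7 genes commonly used to recognise macrophages and other leukocytes: Tyrobp, Fcer1g, Csf1r, Marco, Cd68, Ptprc and Cd53. They were picked up by gene name on a mouse microarray, which carries 13 probes for them on 22 spots, out of 55681 probes in all and 27345 named genes. They were chosen with their signals and above-background flags in these same samples known, so their levels and differences below are a description and no p is given for them. Where the number of them past the threshold of the fit over all genes is given, it rests on the same values and supports nothing. The samples were primary murine alveolar type II cells, the surfactant-making cells of the lung, grown for 3 days at an air-liquid interface, and the labels give no strain, age or genotype. In 1 experiment the cells were given 100 µM NaHS, a fast hydrogen sulfide donor, or vehicle (DMEM), for 24 h or 6 h. In the other they were given 100 µM GYY4137, a slow hydrogen sulfide donor, for 24 h in 85% O2 (hyperoxia) or 21% O2 (normoxia). Every group of the GYY4137 experiment that was analysed here carried the donor, so no comparison here shows an effect of GYY4137 itself. Each of the 6 groups had 4 arrays, and the labels do not say whether these were separate cultures or animals, so any p measures only the spread between these samples.

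C1q starts the classical complement pathway by binding antibody complexes or cell debris, and it is made largely by macrophages and related myeloid cells. Tyrobp (DAP12) and Fcer1g are membrane adaptors whose ITAM motif passes signals from activating receptors to the kinase Syk. Csf1r is the receptor for the growth factors Csf1 and Il34, which keep macrophages alive. Marco, a scavenger receptor, is strongly expressed by alveolar macrophages, Cd68 is a glycoprotein of macrophage lysosomes, and Ptprc (CD45) and Cd53 are surface proteins of most leukocytes. Alveolar macrophages lie on the epithelium from which type II cells are isolated, so their messages can be present in such a culture.

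Each probe is a 60-base sequence. The 4 printed here belong to the genes whose values separate the patterns described below. C1qa and C1qb lie near each other on chromosome 4, on either side of C1qc. Their patterns differed in the NaHS experiment, but C1qa was above background there on only 4 of 16 arrays. That contrast therefore rests largely on C1qa signals below background. Cd53 separates the times, and Tyrobp varies most between arrays of 1 group among the ITAM adaptors. All letters are in lower case because no part is singled out. The array design places the C1qa probe at chr4:136452409-136452468 and the C1qb probe at chr4:136436578-136436637, both on the minus strand of mm9. The Cd53 probe lies at chr3:106565046-106566140 on the minus strand and the Tyrobp probe at chr7:31200651-31202378 on the plus strand. The last pair span 1095 and 1728 bases of genome, more than the probe's own length, so both probes cross an intron and match spliced RNA.
C1qa probe: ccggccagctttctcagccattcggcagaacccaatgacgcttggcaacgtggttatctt
C1qb probe: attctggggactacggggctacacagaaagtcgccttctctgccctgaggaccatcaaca
Cd53 probe: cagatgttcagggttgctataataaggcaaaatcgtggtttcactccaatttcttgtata
Tyrobp probe: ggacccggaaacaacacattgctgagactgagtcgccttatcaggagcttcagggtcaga

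Upstream sequence was available for 7 of the 10 genes, in 8 windows of 300 bases around annotated starts (RefSeq, GRCm38.p6). The letters GAGGAA, the core recognised by the macrophage factor PU.1 (gene Spi1), were looked for on both strands, where they read TTCCTC on the other. They stood in 6 of the 8 windows, against 28.3% of the 32851 windows in the table. The window of Fcer1g and 1 of the 2 windows of Ptprc held none. The 250 bases before the start of C1qc (chr4:136892915-136893164), Cd68 (chr11:69666171-69666420) and Marco (chr1:120505025-120505274) are shown, all on the minus strand, because these genes share the array-to-array pattern given below. Capitals mark the match. A second match in the Cd68 window lies after the start and is not shown.
C1qc upstream: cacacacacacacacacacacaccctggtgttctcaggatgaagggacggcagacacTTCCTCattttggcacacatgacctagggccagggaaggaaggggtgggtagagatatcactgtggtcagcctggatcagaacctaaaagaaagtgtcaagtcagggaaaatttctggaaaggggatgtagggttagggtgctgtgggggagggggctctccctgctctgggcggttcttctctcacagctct
Cd68 upstream: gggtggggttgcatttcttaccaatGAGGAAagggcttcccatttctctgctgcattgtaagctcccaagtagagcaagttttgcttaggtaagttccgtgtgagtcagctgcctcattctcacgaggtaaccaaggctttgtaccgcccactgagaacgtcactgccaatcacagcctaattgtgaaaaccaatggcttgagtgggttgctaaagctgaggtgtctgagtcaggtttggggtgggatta
Marco upstream: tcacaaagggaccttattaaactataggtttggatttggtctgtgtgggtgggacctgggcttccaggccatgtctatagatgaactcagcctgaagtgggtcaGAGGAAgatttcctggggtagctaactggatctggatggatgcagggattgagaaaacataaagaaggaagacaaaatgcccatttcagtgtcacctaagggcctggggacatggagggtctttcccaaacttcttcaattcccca

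The array signals are given below as scaled levels, that is the log2 processed signal minus the array's own 75th percentile, so that 0 is the 75th percentile itself. Levels of different probes are not set against each other, since each probe binds with its own strength. The share of probes well above background ran from 54.8% to 77.5% per array. Slides 1 and 2 each held 2 arrays of every NaHS and vehicle group. Replicates 1 and 3 were on slide 1, and replicates 2 and 4 on slide 2. On both slides all 6 h arrays lay in row 1 and all 24 h arrays in row 2. Vehicle arrays lay in columns 1 and 2, and NaHS arrays in columns 3 and 4. Position on the slide therefore cannot be told apart from time or treatment. The 85% O2 arrays were all on slide 4 and the 21% O2 arrays all on slide 3, so slide and O2 cannot be told apart. The cells carried their epithelial label: Krt8 averaged 7.94 to 8.26 in the 4 groups of the NaHS experiment, 7.59 in 85% O2 and 7.40 in 21% O2, and the type II genes Sftpc and Abca3 were above background on all 24 arrays. Of 12 type II genes 9 were above background on every array of each group of the NaHS experiment, and Slc34a2, a phosphate transporter of type II cells, on none. Of 10 epithelial genes 10 were above background on every array of both experiments. Fibroblast genes were also widely detected. Of 8 such genes 7 were above background on every array of the NaHS experiment, and 8 on every array of the GYY4137 experiment. Lymphocyte genes Cd3d, Cd3g and Il7r and the neutrophil genes Ngp and Retnlg were above background on no array of the NaHS experiment, while 7 of 12 neutrophil genes, among them Ltf, Mpo, Camp and Ly6g, were above background on every one. Of 16 lymphocyte genes 5 were above background on every array of the NaHS experiment. In the GYY4137 experiment 8 of the 16 were, and 0 were above background on no array. Cd3e and the B-cell gene Cd79a were above background on all 24 arrays, with group means of 1.01 to 1.59 and of -3.31 to -2.37.

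The adaptors come first. Tyrobp was above background on all 24 arrays but differed widely inside every group. In NaHS at 24 h its scaled levels in replicates 1 to 4 were -0.87, -2.22, 1.18 and -1.98, and in vehicle at 24 h they were -0.09, -1.19, 1.04 and -2.41. In NaHS at 6 h they were -3.61, -2.05, -3.07 and -1.16, and in vehicle at 6 h -2.95, -2.65, -3.24 and -1.54. Replicate 3 was the high array in both 24 h groups, and replicate 4 was the high array in both 6 h groups. In 85% O2 the levels were -2.91, -4.06, 0.81 and 0.52, against -3.51, -3.24, -1.42 and -1.16 in 21% O2. Replicates 3 and 4 stood above replicates 1 and 2 in both O2 groups. In bulk RNA such as this, fewer cells of a type and less RNA per cell cannot be told apart.

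Fcer1g, the other adaptor, spread less. It had -0.17, -0.72, 1.18 and -0.30 in NaHS at 24 h, against 0.26, -0.34, 1.06 and -0.69 in vehicle at 24 h. At 6 h it lay between -0.77 and -0.50 in NaHS and between -1.08 and -0.63 in vehicle. In 85% O2 it had -0.54, -0.58, 0.99 and 0.36, against -0.59, -1.10, -0.98 and -0.67 in 21% O2. The same arrays were high as for Tyrobp at 24 h and in 85% O2, and the 85% O2 arrays did not overlap those of 21% O2.

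Marco followed Tyrobp closely. Its scaled levels were 0.65, -0.21, 2.93 and 0.09 in NaHS at 24 h, against 2.18, 0.46, 3.19 and -0.64 in vehicle at 24 h. At 6 h they were -1.76, -0.54, -1.32 and 0.63 in NaHS, against -0.91, -0.52, -1.16 and -0.27 in vehicle. In 85% O2 they were -0.91, -1.32, 2.11 and 1.92, against -1.48, -1.003, 0.23 and 0.85 in 21% O2. Replicates 3 and 4 were again the higher pair at both O2 levels. With each slide's mean taken off, Tyrobp and Marco had Pearson's r = 0.983 and Spearman's rho = 0.962 over the 16 arrays of the NaHS experiment. Over the 8 arrays of the GYY4137 experiment r was 0.990. Without the 2 arrays farthest from the median of Tyrobp, r was 0.969 and 0.991. These are descriptions over arrays that share groups and slides.

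**Figure D1:**
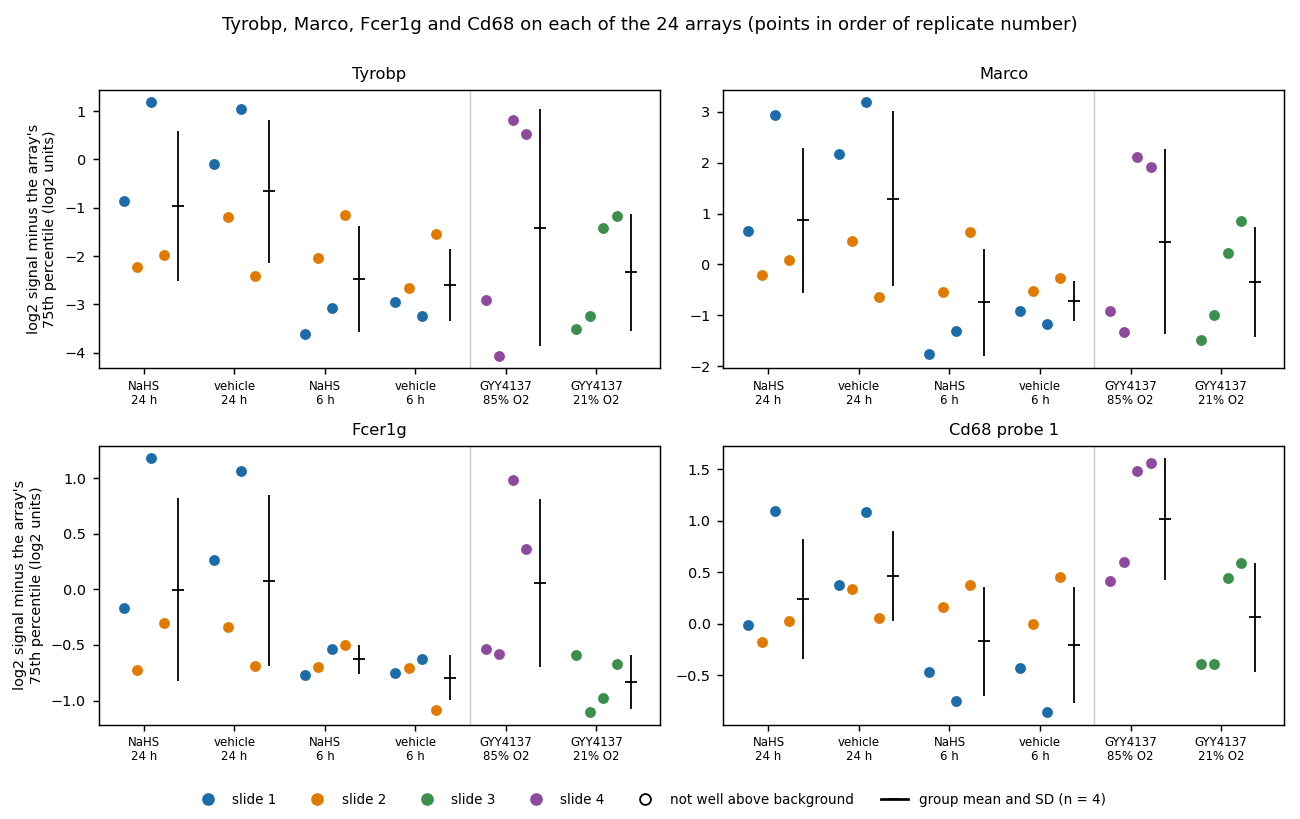
Scaled level (log2 signal minus the array's 75th percentile) of Tyrobp, Marco, Fcer1g and Cd68 probe 1 on each of the 24 arrays, by group, coloured by slide, with group mean and SD (n = 4) as bars; all points are above background. In Tyrobp and Marco, replicate 3 is the highest array of both 24 h groups of the NaHS experiment, and replicates 3 and 4 are the higher pair in both O2 groups.

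Cd68 has 2 probes. Probe 1 was above background on all 24 arrays and averaged 0.24 ± 0.58 in NaHS and 0.47 ± 0.44 in vehicle at 24 h (SD, n = 4 each). It averaged -0.17 ± 0.53 in NaHS and -0.21 ± 0.56 in vehicle at 6 h. In 85% O2 it had 0.42, 0.60, 1.48 and 1.56, against -0.39, -0.39, 0.44 and 0.59 in 21% O2. Probe 1 followed Tyrobp with r = 0.954 over 16 arrays and 0.925 over 8. Probe 2 was above background on 18 of 24 arrays, and in 85% against 21% O2 its difference was 1.40 ± 0.54 (SE), against 0.95 ± 0.35 for probe 1, so both probes pointed the same way there.

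In the NaHS experiment the C1q chains did not move as 1 unit. Over its 16 arrays C1qb had r = 0.103 with C1qa and 0.299 with C1qc, while C1qa and C1qc had 0.811. C1qa and C1qc were above background on only 4 and 3 of these arrays. Over the 8 GYY4137 arrays r was 0.801 for C1qa with C1qb, 0.889 for C1qb with C1qc and 0.908 for C1qa with C1qc. C1qb was above background on all 24 arrays and split by slide rather than by group: in NaHS at 24 h its levels were -2.81 and -2.35 on slide 1 and -1.58 and -1.18 on slide 2. In vehicle at 24 h they were -2.76 and -2.64 on slide 1 and -0.83 and -1.11 on slide 2. The mean of slide 2 minus slide 1 within groups was 1.53, and group means ran only from -2.02 to -1.80 over all 6 groups, with all ranges of neighbours in that order overlapping. C1qb had r = 0.336 with Tyrobp over 16 arrays and 0.828 over 8.

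C1qa was above background on 8 of 24 arrays. Its processed signals were 13.5, 10.9, 18.62 and 15.8 in NaHS at 24 h, all above background, against 3.98, 4.55, 4.07 and 1.99 in vehicle at 24 h, none above background. At 6 h no array was above background in either group. In 85% O2 the signals were 30.3, 14.95, 125 and 100.3, with replicate 2 not above background, against 15.7, 15.8, 18.8 and 14.4 in 21% O2, where only replicate 3 was above background. In scaled levels NaHS at 24 h averaged -4.92 ± 0.43 and vehicle at 24 h -6.67 ± 0.59 (SD, n = 4 each), and the 2 groups did not overlap. Vehicle gives no level above background, so a floor was used. On each array it was the lowest signal among probes above background, or the C1qa signal where that was higher. C1qa in NaHS at 24 h lay 1.35-fold above the floor of vehicle at 24 h. It lay 1.45-fold above that of NaHS at 6 h, where the C1qa mean was -7.18 ± 0.40. The floor is not the detection limit of C1qa, so these folds are not minimum differences. Replicates 2 and 4 of 21% O2 lay above the lowest such signal and were still not above background. With the normexp background method, which adds an offset to every spot, the difference of NaHS from vehicle at 24 h was -0.03 ± 0.15 (SE), and that of 24 h from 6 h in NaHS was 0.09 ± 0.15.

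C1qc, on 10 spots, was above background on 7 of 24 arrays: replicates 3 and 4 in NaHS at 24 h, replicate 2 in vehicle at 24 h, and replicates 3 and 4 in both 85% and 21% O2. Its levels in 85% O2 were -5.73, -6.93, -2.69 and -3.67, against -6.38, -6.43, -4.78 and -5.05 in 21% O2. Over these 8 arrays it followed Tyrobp with r = 0.982 and C1qa with r = 0.908, though many of its values lie below background.

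Csf1r has 3 probes, all above background on all 24 arrays. Probe 1 averaged 1.38 ± 0.33 in NaHS and 1.68 ± 0.27 in vehicle at 24 h, 1.66 ± 0.30 in NaHS and 1.64 ± 0.22 in vehicle at 6 h, 1.41 ± 0.24 in 85% O2 and 1.498 ± 0.10 in 21% O2 (SD, n = 4 each). All neighbours in the order of its group means overlapped. Its r with Tyrobp was -0.132 over 16 arrays and 0.013 over 8. For probe 2 it was -0.171 and 0.068, and for probe 3 -0.219 and 0.542, so the probes did not agree over the 8 GYY4137 arrays, where probe 3 had r = 0.895 with Fcer1g. Probe 2 split by slide, with slide 2 higher by 1.38 on average. Probe 3 was higher on slide 2 by 0.38 on average, with slides overlapping in NaHS at 6 h.

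Of the leukocyte proteins, Cd53 separated the times. It was above background on 23 of 24 arrays, the exception being replicate 1 of vehicle at 6 h. Its levels were -2.42, -1.97, -2.11 and -3.05 in NaHS at 24 h, against -4.55, -3.76, -4.22 and -3.68 in NaHS at 6 h. They were -1.94, -1.48, -1.95 and -2.14 in vehicle at 24 h, against -4.74, -3.55, -4.68 and -3.92 in vehicle at 6 h. The 24 h and 6 h arrays did not overlap in either treatment. In 85% O2 it had -2.16, -2.32, -1.84 and -1.83, against -2.90, -2.58, -2.88 and -1.68 in 21% O2, where the ranges overlapped. Ptprc was above background on all 24 h arrays of both experiments, but at 6 h only on replicates 2 and 4 of each group, the arrays of slide 2. In 85% O2 it averaged -2.78 ± 0.28, against -3.35 ± 0.34 in 21% O2 (SD, n = 4 each).

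**Figure D2:**
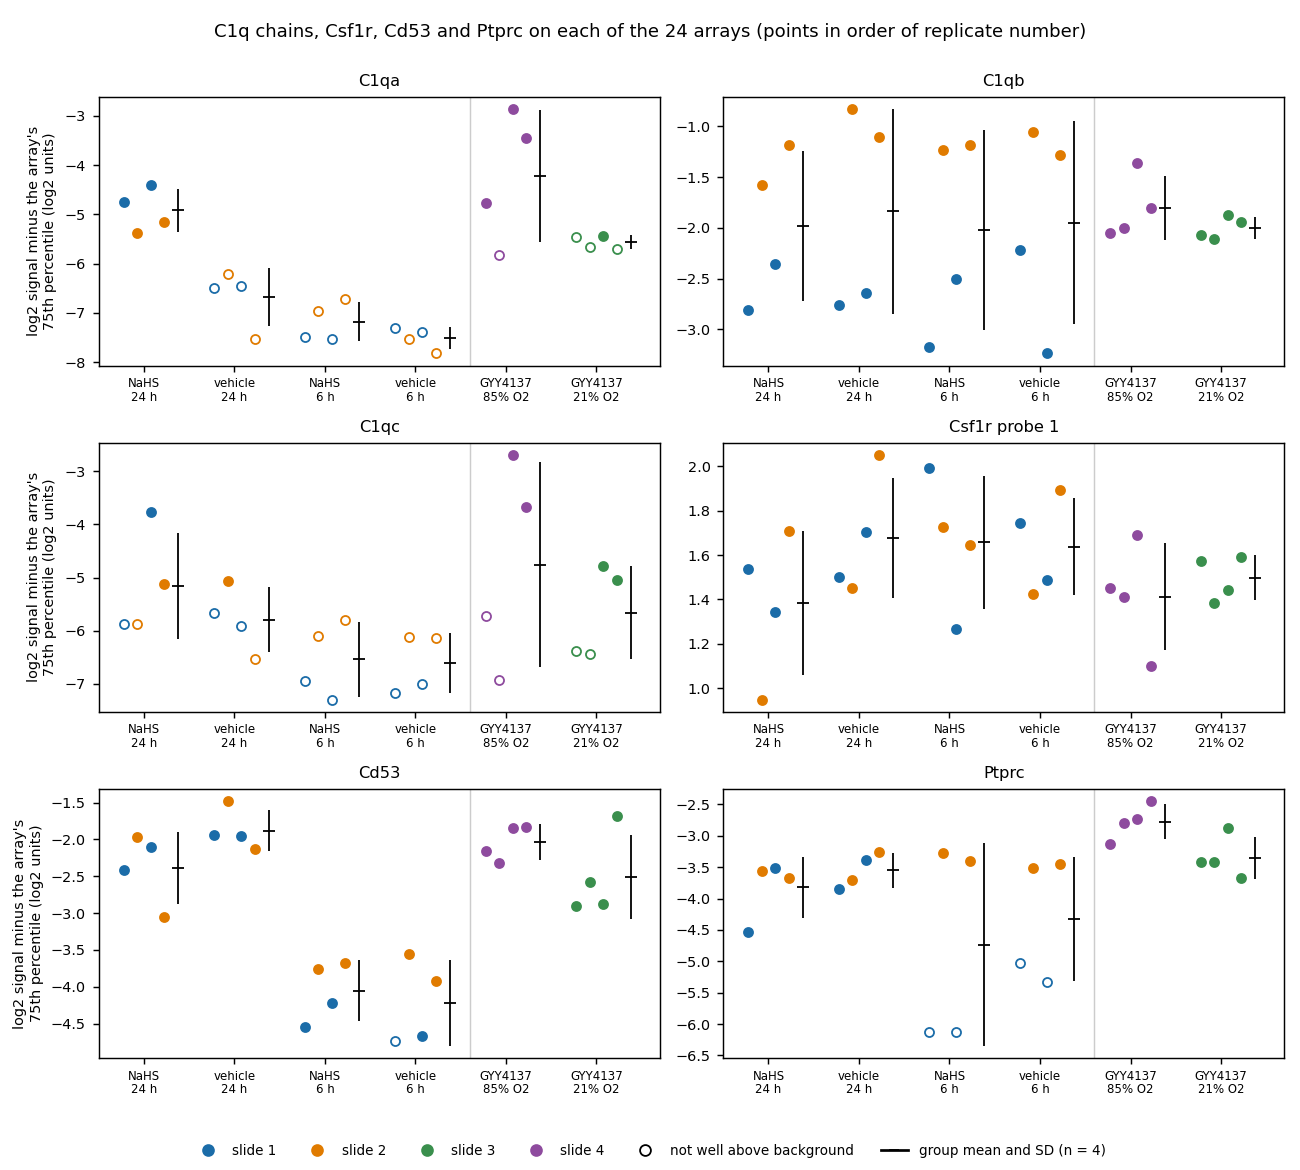
Scaled level (log2 signal minus the array's 75th percentile) of C1qa, C1qb, C1qc, Csf1r probe 1, Cd53 and Ptprc on each of the 24 arrays, by group and coloured by slide; open points are not well above background, bars are group mean and SD (n = 4). C1qa is above background on all 4 arrays of NaHS at 24 h and on no other array of the NaHS experiment, Cd53 lies higher at 24 h than at 6 h, and C1qb splits by slide.

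**Figure D3:**
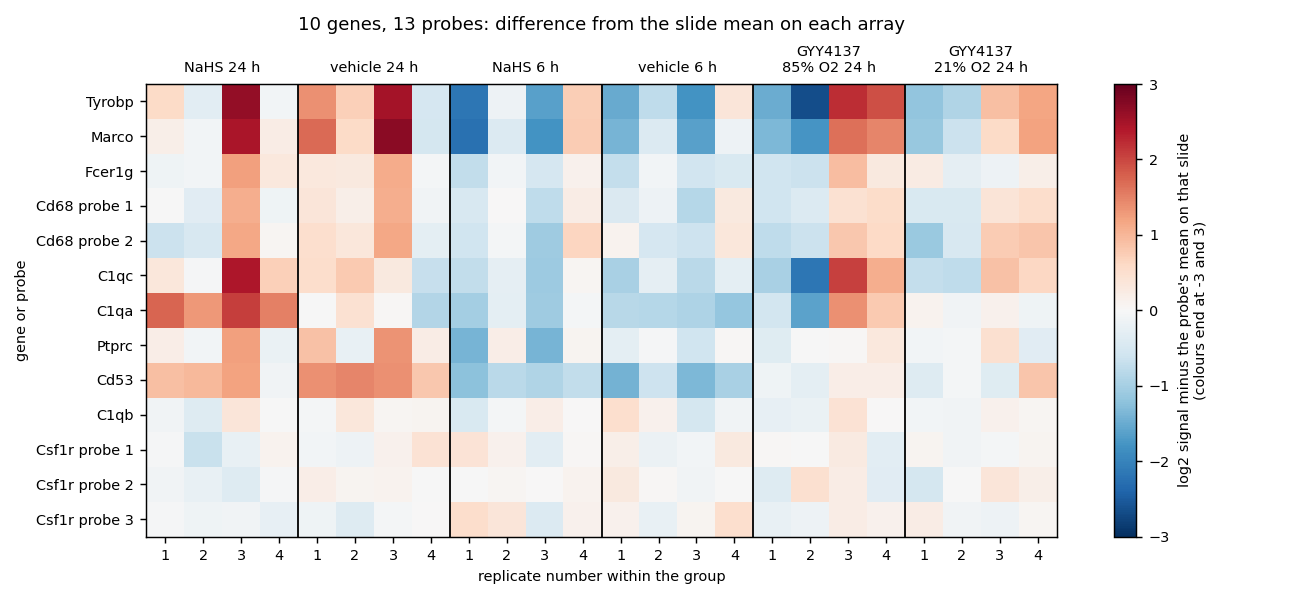
Each cell is the log2 signal of 1 probe on 1 array minus that probe's mean on the same slide, with arrays grouped by condition and ordered by replicate number; since slides 3 and 4 each hold 1 group, differences between the O2 groups are not visible here. Tyrobp, Marco, Fcer1g and Cd68 share the same high arrays (replicate 3 of both 24 h groups of the NaHS experiment, replicates 3 and 4 of 85% O2), while C1qb and the 3 Csf1r probes stay within 1 log2 unit of their slide means.

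NaHS against vehicle was the first question of the design. At 6 h, 0 of the 9 members tested passed the threshold (limma, Benjamini-Hochberg adjusted p under 0.05 over all genes), where 0.0% of 33061 genes did and 196 had an unadjusted p under 0.05. At 24 h it was again 0 of 9, with 0.0% of genes called and 734 at an unadjusted p under 0.05. The tenth member, C1qc, did not enter the fit because it was above background on fewer than 4 of the 16 arrays. C1qa was the only member whose NaHS and vehicle arrays did not overlap at 24 h, which 0.944% of genes did in the same direction. It entered the fit only through its 4 arrays of NaHS at 24 h, so this separation is no result. The other 8 members had differences of -0.51 to -0.08 at 24 h, from Cd53 at -0.51 ± 0.31 to Fcer1g at -0.08 ± 0.39 (SE), all with overlapping arrays. For Tyrobp the 95% interval of NaHS minus vehicle at 24 h ran from -2.13 to 1.52, and for Csf1r probe 1 from -0.72 to 0.14. The fit leaves slide out, so the Tyrobp interval also holds slide spread shared by both groups. At 24 h slide 2 minus slide 1 was -2.25 in NaHS and -2.28 in vehicle. NaHS minus vehicle was -0.32 within slide 1 and -0.29 within slide 2. Between arrays of the same number, replicates 1 to 4, it was -0.78, -1.03, 0.14 and 0.44. The NaHS effect at 24 h minus that at 6 h gave 0 of 9 members past the threshold, 0.0% of genes, and 356 genes at an unadjusted p under 0.05.

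In vehicle at 24 h against 6 h, 1 of 9 members, Cd53, passed the threshold, which 0.608% of the genes did. Its difference was 2.34 ± 0.31 (SE), 2.76 within slide 1 and 1.93 within slide 2, and its arrays did not overlap, as in 3.87% of genes. With normexp the difference was 0.90 ± 0.14. This difference was known when the genes were chosen. The other 8 members tested had positive differences, of which Marco at 2.01 ± 0.84, Tyrobp at 1.93 ± 0.85, Fcer1g at 0.87 ± 0.39 and Ptprc at 0.78 ± 0.66 (SE) were the largest after Cd53 and apart from C1qa, which was below background at both times. The 2 slides differed in these values. Tyrobp was higher at 24 h by 3.58 within slide 1 and by 0.29 within slide 2, Marco by 3.72 and 0.30, and Cd68 by 1.38 within slide 1 and by -0.03 within slide 2. With C1qa left out, the median of the 8 members tested was 0.82, against 0.01 over all genes.

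In NaHS at 24 h against 6 h, C1qa was the 1 member of 9 past the threshold, which 0.0272% of the genes passed, and this too was known when the genes were chosen. C1qa met the filter of 4 arrays above background only through the NaHS 24 h group, where it is high, so its difference was built into its selection. The number of members past the threshold was 0 with quantile normalization, normexp, no filter and the deposited table, and C1qa kept its call in 4 of 16 fits that left out 1 array. It and Cd53 were the 2 members whose arrays did not overlap, as in 3.62% of genes. Cd53 differed by 1.66 ± 0.31 (SE). With normexp its difference was 0.62 ± 0.14. With the replicate number as a block both C1qa and Cd53 passed, and 35 genes were called in place of 9. Tyrobp differed by 3.498 within slide 1 and by -0.495 within slide 2, and Marco by 3.33 and -0.10. In both genes the 24 h arrays lay above the 6 h arrays on slide 1 and overlapped them on slide 2, as in vehicle. On slide 2 in vehicle, replicates 2 and 4 differed in opposite directions, by 1.46 and -0.87 for Tyrobp and by 0.98 and -0.38 for Marco. Each time comparison shares arrays with the comparisons of NaHS with vehicle. It also sets row 2 of each slide against row 1, so position on the slide is not separated from time.

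In 85% against 21% O2 with GYY4137, 0 of 10 members passed the threshold, where 15.8% of 34504 genes did. Fcer1g was the 1 member whose arrays did not overlap, which 14.7% of genes did in that direction. Its difference was 0.89 ± 0.35 (SE). C1qa differed by 1.34 ± 0.57, with only 1 of the 4 arrays of 21% O2 above background, and by 0.44 ± 0.22 with normexp. Cd68 differed by 0.95 ± 0.35, Tyrobp by 0.92 ± 1.16, C1qc by 0.90 ± 0.90, Marco by 0.80 ± 0.90 and Ptprc by 0.57 ± 0.21 (SE). Csf1r probe 1 differed by -0.09 ± 0.14. Between arrays of the same number, Cd68 differed by 0.81, 0.99, 1.04 and 0.97, and Tyrobp by 0.60, -0.82, 2.23 and 1.68. With the replicate number as a block, Cd68 was past the threshold. Without replicates 3 and 4 of 85% O2, Tyrobp differed by -1.15, Marco by -0.77, C1qc by -0.67 and C1qb by -0.03, while C1qa differed by 0.27, Fcer1g by 0.28 and Cd68 by 0.45. Those values keep replicates 3 and 4 of 21% O2, which were the higher pair there too in Tyrobp, Marco and C1qc. Between arrays of the same number, replicates 1 and 2 gave 0.57 and -0.32 for Marco, 0.66 and -0.50 for C1qc and 0.02 and 0.11 for C1qb.

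**Figure D4:**
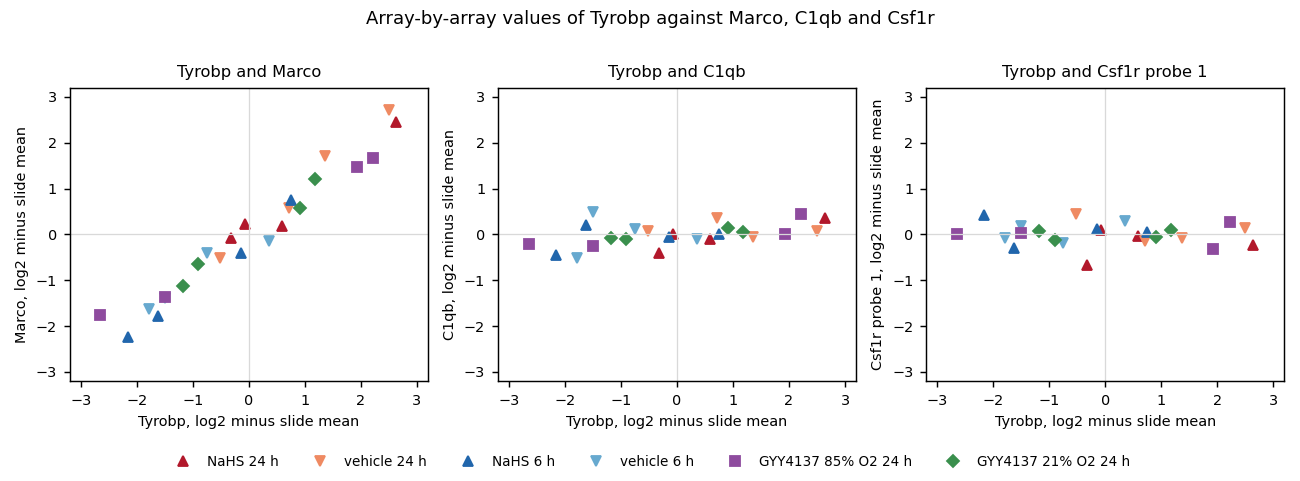
Each point is 1 of the 24 arrays, with the slide mean taken off each gene: Tyrobp on the horizontal axis against Marco, C1qb and Csf1r probe 1 on the vertical axes (log2 units), marked by group. Marco is higher where Tyrobp is higher (r = 0.983 over the NaHS experiment, 0.990 over the GYY4137 experiment), and Csf1r probe 1 shows no such relation (r = -0.132 and 0.013).

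The genes whose array pattern was nearest to a member were looked for among 15563 named genes above background on at least 12 of the 16 arrays, by Pearson's r with slide means taken off. Tyrobp had Ccl6 (r = 0.992), Ctss (0.991) and Mpeg1 (0.988) nearest, with r of 0.997, 0.994 and 0.984 over the 8 GYY4137 arrays, which played no part in the choice. Marco had Ccl6, Mpeg1 and Clec7a at 0.989, 0.988 and 0.987. Cd68 probe 1 had Chil3 nearest at 0.960, with 0.973 over the GYY4137 arrays, and Fcer1g had Alox5ap at 0.959. Ccl6 is a chemokine, Ctss a lysosomal protease, Mpeg1 the pore-forming protein perforin-2 and Clec7a the receptor dectin-1, and Chil3 encodes the chitinase-like protein Ym1. For Cd53 the nearest was Tmem106b, at 0.969 and 0.552 over the GYY4137 arrays. For C1qb the nearest was BC106175, at 0.897 and 0.295, and for Csf1r probe 1 Cryab, at 0.855 and 0.146. Next for C1qb came Clcn6, at 0.895 and 0.877, and Krtap26-1, at 0.892 and 0.221.

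A companion list of 34 further macrophage and monocyte genes, which holds no member, showed the same high arrays. Its mean scaled level was -2.22, -2.59, -1.13 and -2.14 in NaHS at 24 h, against -1.87, -1.94, -1.17 and -2.39 in vehicle at 24 h. In 85% O2 it was -2.36, -2.51, -0.93 and -1.13, against -2.70, -2.65, -1.48 and -1.69 in 21% O2. At 6 h it was -3.21, -2.07, -3.196 and -1.94 in NaHS, against -2.89, -2.43, -3.36 and -1.92 in vehicle. On slide 1 (replicates 1 and 3) the 24 h arrays lay above the 6 h arrays in both treatments, and on slide 2 they lay below them in NaHS and overlapped them in vehicle. In 24 h against 6 h in vehicle, 24 of 31 measured genes were positive with a median of 0.81, against 0.01 over all genes, and 0 of them passed the threshold. In NaHS over time 26 of 31 were positive (median 0.57) and 0 passed, and in 85% against 21% O2 23 of 29 were positive (median 0.45, against 0.07 over all genes) and 0 passed. With the replicate number as a block 2 of them, Siglec1 and Trem2, passed in O2. NaHS against vehicle at 24 h gave 9 of 31 positive, with a median of -0.23, and 0 passed. Mrc1, the mannose receptor, differed by 1.36 ± 0.62 (SE) and Trem2, a Tyrobp-coupled receptor, by 1.52 ± 0.64 in vehicle over time, with limma adjusted p = 0.444 for Mrc1 and adjusted p = 0.382 for Trem2. Adgre1, a macrophage surface receptor, and Lyz2 (lysozyme) differed by 0.98 ± 1.08 and 0.74 ± 0.84. Cd14, which myeloid and some epithelial cells make, differed by -0.42 ± 0.15, with adjusted p = 0.264. Spi1 was above background on 1 array of NaHS at 24 h and 1 of 85% O2, and on no other array.

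**Figure D5:**
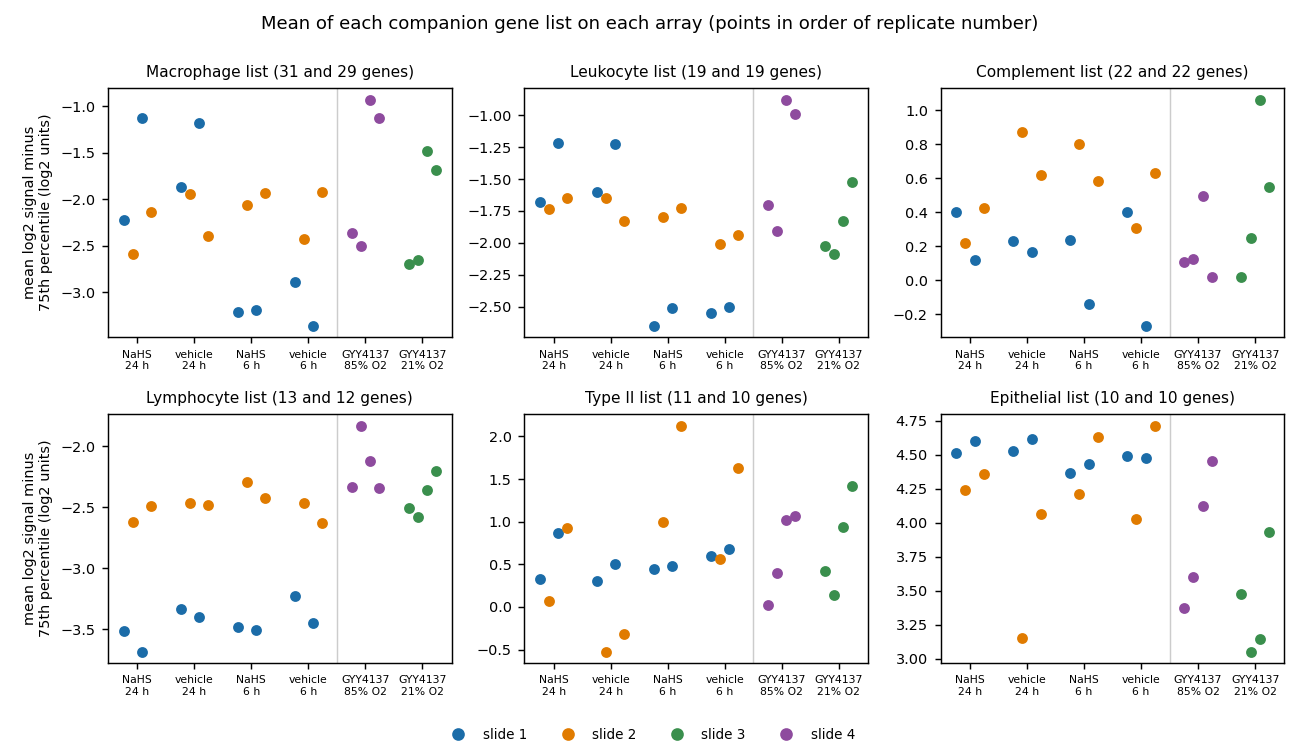
Mean scaled level (log2 units) of 6 companion gene lists on each of the 24 arrays, by group and coloured by slide; the numbers in each title are the genes measured in the NaHS and the GYY4137 experiment. The macrophage list is highest in replicate 3 of both 24 h groups and in replicates 3 and 4 of both O2 groups. That pattern in O2 is not confined to it, since the leukocyte and type II lists have the same higher pair there. The lymphocyte list splits by slide.

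Partners of the members were also measured. The counts of list genes past the threshold in 85% against 21% O2 are to be read beside the 15.8% of all genes called there. Csf1, a ligand of Csf1r, averaged 6.39 ± 0.02 in 85% O2 and 5.63 ± 0.14 in 21% O2 (SD, n = 4 each), a rise of 0.77 ± 0.11 (SE) with limma adjusted p = 0.00539. The second ligand, Il34, differed by -0.44 ± 0.21 with adjusted p = 0.183. Of the 6 genes on this list 2 rose with O2, Csf1 and the granulocyte factor Csf3 (2.30 ± 0.54, adjusted p = 0.0272). Csf2ra, a receptor chain for GM-CSF, was the 1 of 6 that rose in vehicle over time, by 0.75 ± 0.14 (adjusted p = 0.0318). On the list labelled ITAM partners 9 of 11 genes were positive in O2 and 1 passed the threshold. It was the adaptor Hcst (DAP10), which rose by 0.91 ± 0.16 (adjusted p = 0.0117). The kinase Syk differed by 0.53 ± 0.23 (adjusted p = 0.147). The leukocyte list resembled the macrophage list: 16 of 19 genes were positive in vehicle over time (median 0.59), of which 0 passed, and 15 of 19 in 85% against 21% O2 (median 0.54), of which 2 passed. There Was, a regulator of actin in blood cells, rose with O2 by 1.33 ± 0.32 (adjusted p = 0.0293) and the tetraspanin Cd37 fell by 0.79 on the log2 scale (adjusted p = 0.0446).

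The C1 proteases C1ra and C1s1 and the central component C3 were above background on all 24 arrays. In 85% against 21% O2 C3 differed by -1.09 ± 0.63, C1s1 by -0.98 ± 0.52 and C1ra by -0.84 ± 0.51 (SE), with limma adjusted p = 0.251, adjusted p = 0.217 and adjusted p = 0.279 in that order. Of 22 complement genes measured, 7 were positive there with a median of -0.39, and 1 passed the threshold: Serping1, the C1 inhibitor, fell by 0.89 on the log2 scale (adjusted p = 0.046). In NaHS against vehicle at 24 h 6 of 22 were positive, with a median of -0.28, and 0 passed. Among markers of other cells, Thy1, found on fibroblasts and T cells, rose in vehicle over time (1.16 ± 0.24, adjusted p = 0.0485) and fell by 1.05 on the log2 scale in 85% against 21% O2 (adjusted p = 0.00695). The neutrophil gene Ltf fell by 2.05 on the log2 scale in vehicle over time (adjusted p = 0.0318). The surfactant gene Sftpa1 fell by 3.14 on the log2 scale there (adjusted p = 0.024). The type II list also varied between arrays. Its mean was 0.02, 0.40, 1.02 and 1.06 in 85% O2, against 0.42, 0.14, 0.94 and 1.42 in 21% O2. Replicates 3 and 4 were again the higher pair. They were also the higher pair of the leukocyte list in both O2 groups. The same held for the complement list in 21% but not 85% O2, and for the epithelial list in 85% but not 21% O2. The part of these cell types, of slide and of position on the slide in the members' values was not tested.

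The lists of other cells were counted in the same way. In vehicle over time 1 of 9 neutrophil, 1 of 11 type II and 1 of 7 fibroblast genes passed the threshold. Of all genes 0.608% did, and 0 lymphocyte and 0 dendritic and mast cell genes. In 85% against 21% O2 2 of 5 dendritic and mast cell genes passed, against 15.8% of all genes. There 1 of 12 lymphocyte, 1 of 10 neutrophil, 1 of 10 type II, 1 of 10 epithelial, 1 of 8 fibroblast and 0 of 6 endothelial genes passed. In vehicle over time 7 of 13 lymphocyte genes (median 0.02), 3 of 9 neutrophil genes (-0.16), 3 of 6 dendritic and mast cell genes (-0.02) and 3 of 11 type II genes (-0.12) were positive. The epithelial list had 0 of 10 positive (median -0.25), the fibroblast list 4 of 7 (0.04) and the endothelial list 7 of 8 (0.78), and 0 epithelial and 0 endothelial genes passed the threshold. In 85% against 21% O2 7 of 12 lymphocyte genes (median 0.21), 7 of 10 neutrophil genes (0.35), 4 of 5 dendritic and mast cell genes (0.33), 10 of 10 epithelial genes (0.41) and 4 of 6 endothelial genes (0.47) were positive. The type II list had 5 of 10 positive (median -0.04) and the fibroblast list 0 of 8 (-0.41). Cd8a of T cells rose by 0.68 there (limma adjusted p = 0.0114), and Flt3, a receptor of dendritic cells and their precursors, by 1.56 (adjusted p = 0.0165). The dendritic cell factor Zbtb46 rose by 0.57 (adjusted p = 0.0417) and the tight junction gene Cldn4 by 1.57 (adjusted p = 0.0312). Lamp3, a lamellar body protein of type II cells, fell by 1.04 on the log2 scale (adjusted p = 0.00431). The neutrophil gene Mpo fell by 0.63 on the log2 scale (adjusted p = 0.0348).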

How the data were processed

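Total RNA of 24 samples in 6 groups of 4 was measured on 1-colour (Cy3) Agilent arrays. The deposited scanner files give an intensity per spot, the processed signal, made with Feature Extraction 10.7.3.1 per the file headers. It is background-subtracted and not normalized between arrays, and the flags for background and uneven spots are its own. The deposited value table holds log2 values whose scale steps are not given in the sources used here. Its column medians are 5.947 (NaHS experiment) and 7.074 (GYY4137 experiment), and it correlates with the scanner values at 0.9979 or more. It was used as an alternative only.

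Flagged spots were left out, spots of 1 probe were averaged as log2, and each array's 75th percentile was subtracted. Probes above background on at least 4 arrays of an experiment and with no missing array were kept, with the probe of highest mean standing for a gene, which left 33061 and 34504 genes or unnamed probes. A probe with several spots was above background where over 0.5 of its kept spots were. Each experiment was fitted with limma 3.58.1 in R 4.3.3 (package data.table, version 1.17.8), as group means, and p-values were adjusted by Benjamini and Hochberg's method across every tested gene (threshold 0.05). Joins used pandas 2.3.3 and numpy 2.4.6 in Python 3.11.15, and plots matplotlib 3.10.9. The fits were also run on simulated data, but no outcome is given here, so that run supports no result. Contrasts were taken for NaHS over vehicle at each time, the difference of both, 24 h against 6 h in each treatment, and 85% against 21% O2. Where a group had no array above background, a fold is given over a floor, as the report describes. The number of arrays limits the precision.

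The members and the companion lists were chosen with earlier results of these data known. Named beside the members are list genes past the threshold (up to 4 by p for each list and comparison) and a set of well-known macrophage, complement, Csf1 and label-check genes. The lists are macrophage, leukocyte, complement, Csf1 axis, ITAM partners, lymphocyte, neutrophil, dendritic and mast, type II, epithelial, fibroblast and endothelial.

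Replicate numbers were checked for pairing. In the NaHS experiment the 24 same-number pairs correlated at 0.536 to 0.754 in their deviations from group means, but each shares a slide, and within slides the values ran from -0.172 to 0.274. In the GYY4137 experiment the 4 same-number pairs ran from 0.183 to 0.257. The numbers were therefore treated as paired in an added fit. The alternatives were quantile normalization, normexp background with an offset of 50, no filter on dim probes, every probe on its own, the deposited table, the replicate block, slide as a block, each slide alone, only the groups compared, and each array left out.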

Additional observations from a re-analysis of the deposited data

Results flagged for a closer look

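Among 78 sets of 4 arrays (13 probes in 6 groups), 3 held 1 array far from the other 3 by Dixon's test, and chance flags about 1 in 20 sets. Ptprc in replicate 1 of NaHS at 24 h had a scaled level of -4.54, while the other 3 arrays lay between -3.67 and -3.51. Cd68 probe 1 in replicate 3 of NaHS at 24 h had 1.10, while the others lay between -0.17 and 0.03. That array is also the highest of its group in Tyrobp, Marco and Fcer1g. Csf1r probe 3 in replicate 4 of vehicle at 6 h had -1.55, while the others lay between -2.33 and -2.27.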

How the results depend on the processing

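Of 1311 differences of members recomputed under the alternatives, 1274 moved by less than 1 SD of the replicates, 37 moved further and 0 called values changed sign. Much of this was built in. With equal groups, a block of replicate number or slide leaves a probe's difference unchanged. So does a fit without an array of a group outside the comparison. The only called member values were those of Cd53 in vehicle over time and of C1qa in NaHS over time. Signs of uncalled values turned more often. In NaHS against vehicle at 24 h C1qa had -0.03 with normexp, and the alternatives ran from -1.03 to 0.26 for Tyrobp, to 0.20 for Marco, to 0.25 for Fcer1g and to 0.19 for C1qb. Over time, Tyrobp (-0.495), Marco (-0.10), Cd68 (-0.34) and Ptprc (-0.28) in NaHS and Cd68 (-0.03) and Ptprc (-0.01) in vehicle were negative within slide 2. Tyrobp, Marco, C1qc and C1qb turned in 85% against 21% O2 without replicates 3 and 4 of 85% O2, an alternative chosen after seeing the data. For 24 h against 6 h in vehicle, 201 genes were called, against 502 with normexp, 50 with no filter, 369 with every probe on its own, 67 with the deposited table, 882 with the replicate block, 705 with slide as a block, 0 within slide 1, 1 within slide 2 and 0 with only the groups compared. Cd53 was past the threshold in all of these but the last 3, where the count of members was 0. For 24 h against 6 h in NaHS, 9 genes were called, against 2 with quantile normalization, 34 with normexp, 0 with no filter, 1 with the deposited table, 35 with the replicate block, 33 with slide as a block, and 0 within slide 1, within slide 2 and with only the groups compared. The count of members there was 2 (C1qa and Cd53) under both blocks and 0 under the others named here. In 85% against 21% O2, 5453 genes were called, against 366 without replicates 3 and 4 of 85% O2. With the replicate block 1 member (Cd68) and 2 genes of the macrophage list (Siglec1 and Trem2) passed. Leaving out 1 array at a time gave 6 to 308 genes and 0 to 1 members for vehicle over time, 0 to 10 genes and 0 to 1 members for NaHS over time, and 2063 to 6764 genes, 0 to 1 members and 0 to 1 macrophage list genes for O2. Both NaHS against vehicle comparisons and their difference gave 0 throughout. Cd53 in vehicle was lost without replicate 1 of vehicle at 24 h or replicate 1 of vehicle at 6 h. C1qa in NaHS kept its call in 4 of 16 such fits, without replicate 4 of NaHS at 6 h, replicate 2 or 4 of vehicle at 24 h, or replicate 4 of vehicle at 6 h. In O2, C1qa passed without replicate 2 of 85% O2, Ptprc without replicate 3 of 21% O2 and Cd53 without replicate 4 of 21% O2. The cause was not tested. C1qa and C1qc lie near background on most arrays, which limits what their differences can show.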
